A study of Homo sapiens with 12 samples.

Results

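The 10 genes described here are CIITA, the gene of the MHC class II transactivator, CD74, the gene of the invariant chain, and 8 HLA genes of class II, namely HLA-DRA, HLA-DRB1, HLA-DPA1, HLA-DPB1, HLA-DQA1, HLA-DQB1, HLA-DMA and HLA-DMB. They were taken by name from the 59050 gene names of the deposited count table, and each name was found once. The counts come from bulk RNA sequencing of MyLa cells (labelled MYLA), one line of malignant T cells, established from a patient with cutaneous T cell lymphoma. The 4 groups of 3 libraries each were the combination of 3.2 nM romidepsin with 5.7 uM afatinib dimaleate, romidepsin alone at 3.2 nM, afatinib dimaleate alone at 5.7 uM, and DMSO alone. Exposure lasted 24 h in every group, the medium held 20 ng/mL interleukin-2, and the DMSO volume was matched between groups. Romidepsin inhibits histone deacetylases, and afatinib is a covalent inhibitor of the ERBB receptor kinases. Each single drug, the combination and DMSO were compared with each other, and the comparisons with DMSO share the same 3 DMSO libraries. Whether replicate libraries represent separate cultures is not stated in the labels, and the p-values below measure only the spread between libraries, which may be technical.

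MHC class II molecules are pairs of an alpha and a beta chain that show peptides to CD4+ T cells. Human T cells, unlike those of the mouse, carry class II molecules after activation. CIITA does not bind DNA itself and is recruited by factors on the class II promoters: the RFX complex and CREB on the X box, and the NF-Y complex on the Y box. The chains assemble with the invariant chain CD74, which proteases of the endosome trim, and HLA-DM, a pair of HLA-DMA and HLA-DMB, then exchanges the remaining fragment for a peptide.

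The promoter table from RefSeq (GRCh38.p14) had an entry for 8 of the 10 genes, and HLA-DRA and CIITA had none. The stretches shown here are those of the 4 genes with an entry that the results turn on and that held an X or a Y core between 145 and 31 bases before the start of the gene. They run 5′ to 3′ on the strand of the gene. Capitals mark the cores, each searched on both strands in the 250 bases before the start. The strict X core is AG, any 2 bases, AC, any base and GATG, its looser form is AG, any 2 bases, A, any 3 bases and ATG, and the Y core is ATTGG, or CCAAT on the other strand. Every strict core is also a loose one.
HLA-DMA, chr6:32953128-32953242, minus strand: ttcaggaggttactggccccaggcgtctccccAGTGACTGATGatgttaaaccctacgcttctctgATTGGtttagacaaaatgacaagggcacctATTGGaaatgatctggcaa
HLA-DMB, chr6:32941059-32941173, minus strand: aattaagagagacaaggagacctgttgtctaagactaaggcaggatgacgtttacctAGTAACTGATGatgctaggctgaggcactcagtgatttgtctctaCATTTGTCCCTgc
HLA-DPB1, chr6:33075845-33075959, plus strand: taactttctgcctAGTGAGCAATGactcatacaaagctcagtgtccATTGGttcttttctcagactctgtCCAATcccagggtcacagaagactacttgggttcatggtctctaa
CD74, chr5:150412941-150413055, minus strand: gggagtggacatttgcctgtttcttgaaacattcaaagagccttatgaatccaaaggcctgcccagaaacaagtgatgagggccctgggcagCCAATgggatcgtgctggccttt
HLA-DMA held the strict X core and 2 Y cores, the first of them within 35 bases. HLA-DMB held the strict X core and no complete Y core in this stretch, and its last capitals are a loose core on the other strand. A Y core of HLA-DMB began 22 bases before the start, past the end of the stretch shown. HLA-DPB1 held the loose X core and 2 Y cores, and CD74 held a Y core and no match to either form of the X core. The strict core stood in 243 of 35116 promoter entries (0.692%), the loose one in 10.8% and the Y core in 32.0%. A strict X core followed by a Y core within 35 bases stood in 23 entries (0.0655%), among them those of HLA-DMA, HLA-DRB1 and HLA-DQB1. The 2 entries of HLA-DPA1 held no Y core, and 1 of them held a loose X core. These matches describe letters in a window and not bound sites. A promoter without a match to these fixed letters may still hold an X or a Y box.

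Total counts per library were 8972228 to 12696653, and values below are CPM, counts scaled to library size with the TMM factors of edgeR. A library without a count of a gene is limited to the level of 3 counts, 0.229 to 0.344 CPM, which covers counting error only. KRT5, a keratin of basal keratinocytes, had 43 counts in combination replicate 1, 126 in afatinib replicate 3, 59 in DMSO replicate 1 and 94 in DMSO replicate 2, and at most 1 in the other 8 libraries. Each result was therefore computed also without these 4 libraries, which leaves 2 combination, 3 romidepsin and 2 afatinib libraries and 1 DMSO library, assumed to vary like the others. Of 13 T cell markers, 7 had enough counts to be tested, among them CD2, CD3D, CD3G, CD8A and TRAC. CD4 had 1 count over the 12 libraries, CD3E had 10, LCK had 7 and CD7 had 3. Some genes that nearly every cell uses, chosen after their values were seen, were also close to 0 over the 12 libraries. DDX39B had 36 counts, AGPAT1 had 41 and NSF had 31. DDX39B and AGPAT1 lie in the MHC region. An absence of counts in this table is thus reported as a gene listed at 0 and not as absence of its RNA, and the cause was not tested.

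Of the 10 genes, 6 passed the filter on low counts and were tested. HLA-DQA1 and HLA-DQB1, the chains of HLA-DQ, were listed at 0 in all 12 libraries. HLA-DRA, the alpha chain of HLA-DR, had 1 count, in afatinib replicate 2, and HLA-DRB1, a beta chain of HLA-DR, had 1 count, in afatinib replicate 3. HLA-DRB1 and the HLA-DQ genes, unlike HLA-DRA, have close copies and many alleles, and read pairs that map to several places were not counted. The sources used here do not state whether the genome index held alternate haplotypes of the MHC region. The 6 tested genes passed on their counts and do not stand for all 10. In CPM per kilobase of merged exon, averaged over the 12 libraries, CD74 stood at 728, HLA-DPA1 at 134, CIITA at 18.05, HLA-DMA at 11.2, HLA-DPB1 at 3.22 and HLA-DMB at 0.501. This order held in the group means of afatinib and DMSO. In the combination, CIITA (8.12 ± 0.21 CPM per kilobase, SD, n = 3) and HLA-DMA (8.24 ± 0.96, SD, n = 3) overlapped. In romidepsin, CIITA (10.7 ± 0.3, SD, n = 3) lay below HLA-DMA (14.2 ± 2.1, SD, n = 3) in all 3 libraries. The merged exon length, which joins all annotated exons, is 20757 bases for CIITA and 2520 for HLA-DMA. In CPM, CIITA stood above HLA-DMA in romidepsin (means 222 and 35.7), so their order depends on this divisor. Whether a part of the reads of the tested genes was lost in mapping was not tested. The order between genes is therefore one of counted reads.

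CIITA was lower in all 3 drug groups than in DMSO, most in the combination. The gene lies on the plus strand of chr16:10866222-10943021 (GRCh38, from the count table). It had 163, 171 and 171 CPM in the combination, 222, 214 and 228 CPM in romidepsin, 467, 452 and 439 CPM in afatinib, and 632, 666 and 669.6 CPM in DMSO. The 4 groups did not overlap, and each group's 3 libraries lay close together. In edgeR's quasi-likelihood test over all 16208 tested genes, with Benjamini-Hochberg adjustment, CIITA fell 3.89-fold in the combination (log2 fold change -1.96 ± 0.05 SE, adjusted p = 1.62e-33). It fell 2.96-fold in romidepsin (-1.56 ± 0.05 SE, edgeR adjusted p = 2.35e-29). It fell 1.45-fold in afatinib (-0.54 ± 0.05 SE, edgeR adjusted p = 4.16e-12).

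**Figure D1:**
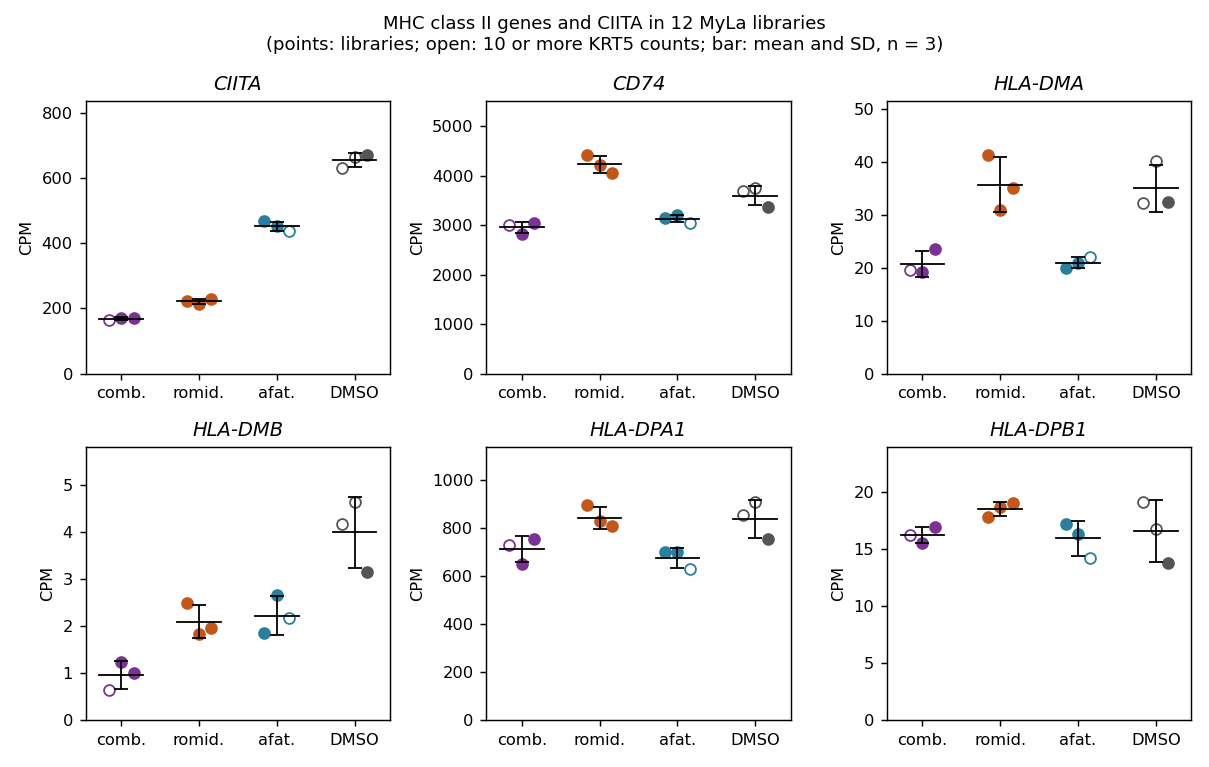
CPM of the 6 tested genes (y axes, from 0) in the combination, romidepsin, afatinib and DMSO (x axis); points are libraries, open where a library holds 10 or more KRT5 counts, and bars are the mean and SD of 3 libraries. CIITA falls in separate steps, with means of 169, 222, 453 and 656 CPM in that order, while CD74 and HLA-DPA1 keep high levels in every group.

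The genes of HLA-DM, the editor of the peptides that class II molecules carry, were both lower in the combination and in afatinib, but they parted under romidepsin. HLA-DMA (alpha chain, minus strand of chr6:32948613-32969094) had 19.6, 19.2 and 23.5 CPM in the combination, 41.2, 30.9 and 34.99 in romidepsin, 20.0, 20.8 and 22.0 in afatinib, and 32.3, 40.2 and 32.5 in DMSO. The combination and afatinib libraries all lay below the DMSO libraries, and the romidepsin libraries overlapped them. HLA-DMA fell by 0.75 on the log2 scale in the combination (± 0.11 SE, edgeR adjusted p = 3.47e-08) and by 0.73 in afatinib (± 0.11 SE, edgeR adjusted p = 2.40e-07). Its log2 fold change in romidepsin was 0.04 ± 0.10 SE, which was not called (edgeR adjusted p = 0.747).

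HLA-DMB (beta chain, minus strand of chr6:32934629-32941028) had the fewest counts of the 6 tested genes. It had 7, 16 and 13 counts in the combination, 29, 16 and 24 counts in romidepsin, 20, 28 and 27 counts in afatinib, and 50, 46 and 36 counts in DMSO. Every drug library had fewer counts than every DMSO library, and the combination was lowest apart from a tie of 16 counts with a romidepsin library. In CPM, the means were 0.949 ± 0.298 in the combination, 2.09 ± 0.35 in romidepsin, 2.22 ± 0.41 in afatinib and 3.99 ± 0.76 in DMSO (SD, n = 3 each). HLA-DMB fell 4.10-fold in the combination (log2 fold change -2.03 ± 0.31 SE, edgeR adjusted p = 1.34e-07), 1.88-fold in romidepsin (-0.91 ± 0.28 SE, edgeR adjusted p = 0.00457) and 1.79-fold in afatinib (-0.84 ± 0.28 SE, edgeR adjusted p = 0.0120). The afatinib call was lost without afatinib replicate 1 (edgeR adjusted p = 0.0683) or without DMSO replicate 2 (edgeR adjusted p = 0.0658).

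CD74, the most abundant of the 10, moved in opposite directions under the single drugs, by small amounts. The gene lies on the minus strand of chr5:150400041-150412929. It had 3009, 2829 and 3042 CPM in the combination, 4415, 4219.5 and 4066 CPM in romidepsin, 3139.5, 3203 and 3054 CPM in afatinib, and 3686, 3746 and 3372 CPM in DMSO. All 3 romidepsin libraries lay above the DMSO libraries, and all combination and afatinib libraries lay below them. CD74 rose 1.18-fold in romidepsin (log2 fold change 0.23 ± 0.05 SE, edgeR adjusted p = 2.17e-04). It fell by 0.28 on the log2 scale in the combination (± 0.05 SE, edgeR adjusted p = 9.38e-06) and by 0.20 in afatinib (± 0.05 SE, edgeR adjusted p = 0.00204).

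HLA-DP was the one peptide-presenting class II molecule here with counts of both chains in every library, and its chains changed little. HLA-DPA1 (alpha chain, minus strand of chr6:33064569-33080775) had 731, 649.8 and 754 CPM in the combination, 895, 828 and 808 CPM in romidepsin, 698, 701 and 629 CPM in afatinib, and 855, 910.2 and 753 CPM in DMSO. The afatinib libraries lay below the DMSO libraries, whereas 1 combination library lay just above the lowest of DMSO and the romidepsin libraries lay within the DMSO range. HLA-DPA1 fell by 0.24 on the log2 scale in the combination (± 0.06 SE, edgeR adjusted p = 5.92e-04) and by 0.31 in afatinib (± 0.06 SE, edgeR adjusted p = 4.09e-05), and its log2 fold change in romidepsin was 0.01 ± 0.06 SE (not called, edgeR adjusted p = 0.917). HLA-DPB1 (beta chain, plus strand of chr6:33075990-33089696) overlaps HLA-DPA1 on the other strand, and the header of the count table gives no strand option, so reads of their shared stretch may be lost or misplaced. It had 16.2, 15.5 and 16.96 CPM in the combination, 17.9, 18.7 and 19.1 CPM in romidepsin, 17.2, 16.4 and 14.2 CPM in afatinib, and 19.2, 16.8 and 13.8 CPM in DMSO. The DMSO range spanned the drug libraries, and HLA-DPB1 was called in none of the 3 comparisons with DMSO (log2 fold changes of -0.03, 0.16 and -0.06 in the combination, romidepsin and afatinib, SE 0.12 to 0.13).

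Over the 6 tested genes, 5 were called lower in the combination than in DMSO, where 37.1% of all tested genes were called lower, 37.2% higher and 74.3% in either direction. In afatinib, 5 were called lower, where 23.3% of all tested genes were lower, 22% higher and 45.4% called in either direction. In romidepsin, 2 were called lower (CIITA and HLA-DMB) and 1 higher (CD74), where 31.5% of all tested genes were lower, 31.1% higher and 62.6% called in either direction. The median log2 fold change of the 6 genes was -0.51 in the combination, 0.02 in romidepsin and -0.42 in afatinib, against -0.0050, -0.0025 and 0.0016 over all tested genes.

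Without the 4 libraries that hold KRT5 counts, 1 DMSO library is left, and calls over all tested genes fell as well in afatinib. A call lost or gained in this fit, here or in the gene lists below, is therefore not read as a result about the gene. For those lists, numbers of called genes in this fit are not given. CIITA stayed called in all 3 comparisons and HLA-DMA in the combination and in afatinib, and HLA-DMB stayed called in the combination. CD74 in the combination had a log2 fold change of -0.13 without these libraries (edgeR adjusted p = 0.181) and in afatinib of -0.05 (edgeR adjusted p = 0.705). HLA-DPA1 had -0.03 in the combination (edgeR adjusted p = 0.790) and -0.07 in afatinib (edgeR adjusted p = 0.619). HLA-DMB had -0.53 in romidepsin (edgeR adjusted p = 0.296) and -0.45 in afatinib (edgeR adjusted p = 0.504). HLA-DPA1 and HLA-DPB1 gained a call in romidepsin, with 0.21 (edgeR adjusted p = 0.0331) and 0.48 (edgeR adjusted p = 0.0213). The remaining DMSO library, replicate 3, had the lowest CPM of the DMSO group for CD74, HLA-DPA1, HLA-DPB1 and HLA-DMB. The part of the cells or RNA that carried KRT5 in these differences was not tested.

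**Figure D2:**
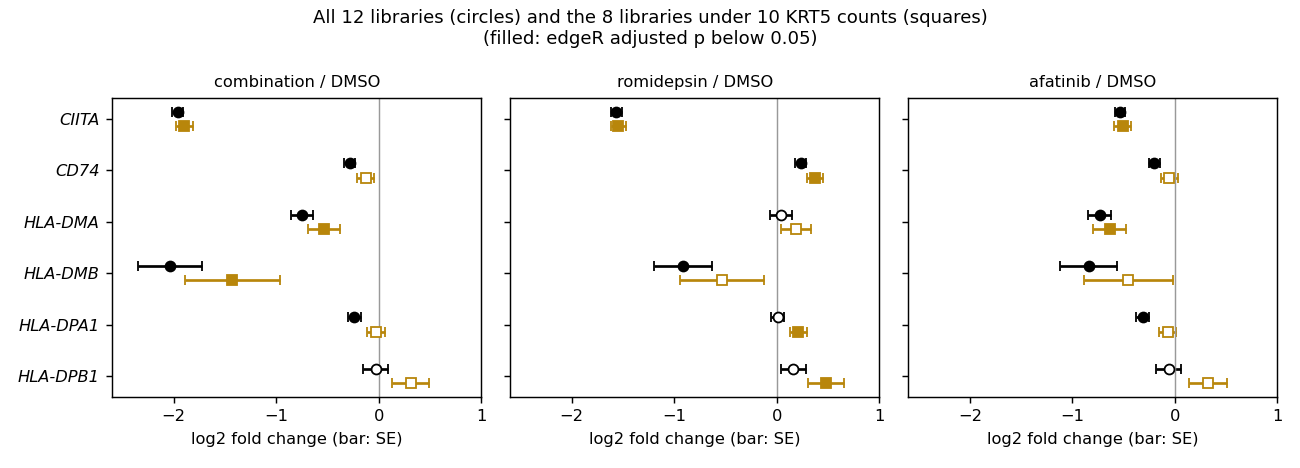
Log2 fold changes against DMSO (x axes) of the 6 tested genes (y axis) in the combination, romidepsin and afatinib, from all 12 libraries (circles) and from the 8 libraries under 10 KRT5 counts (squares); bars are SEs and filled symbols were called by edgeR. The CIITA symbols nearly coincide at about -1.9, -1.6 and -0.5, while CD74, HLA-DPA1, HLA-DPB1 and HLA-DMB shift to the right without the KRT5 libraries.

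The combination was also set against each single drug. Against romidepsin, 5 of the 6 tested genes were lower in the combination, where 29.2% of all tested genes were called lower, 25.1% higher and 54.3% in either direction. CIITA fell by 0.40 on the log2 scale (± 0.05 SE, edgeR adjusted p = 2.79e-08), CD74 by 0.52 (± 0.05 SE, edgeR adjusted p = 2.75e-11) and HLA-DMA by 0.79 (± 0.11 SE, edgeR adjusted p = 2.52e-08). HLA-DPA1 fell by 0.25 and HLA-DMB by 1.12, and HLA-DMB lost its call without the KRT5 libraries (edgeR adjusted p = 0.0521). Against afatinib, CIITA and HLA-DMB were lower in the combination, 2 of 6, where 35.8% of all tested genes were called lower, 33.4% higher and 69.2% in either direction. CIITA fell by 1.42 (± 0.05 SE, edgeR adjusted p = 6.28e-28) and HLA-DMB by 1.195 (± 0.34 SE, edgeR adjusted p = 0.00177). The log2 fold change of CD74 against afatinib was -0.08 ± 0.05 SE and that of HLA-DMA -0.01 ± 0.11 SE, and neither was called. HLA-DPA1 (0.07 ± 0.06 SE) and HLA-DPB1 (0.03 ± 0.12 SE) were not called either, but HLA-DPA1 gained a call when only these groups were fitted (0.11, edgeR adjusted p = 0.0475).

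Romidepsin and afatinib, set directly against each other, differed in 4 of the 6 genes, where 32.2% of all tested genes were called higher, 32.4% lower and 64.6% in either direction. CD74 (0.43), HLA-DPA1 (0.32) and HLA-DMA (0.78) were higher in romidepsin on the log2 scale, and CIITA was lower (-1.03 ± 0.05 SE, edgeR adjusted p = 2.58e-22). CIITA and 3 of the genes it is known to activate stood in opposite order in these groups. Without the KRT5 libraries these 4 genes kept their direction.

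The interaction compares the combination with both single drugs added up, each as a log2 fold change against DMSO, and is negative where the combination lies below that sum. Of the 6 genes, 1 was called, where 18.5% of all tested genes were called lower, 11.7% higher and 30.2% in either direction. CD74 had an interaction of -0.31 ± 0.08 SE on the log2 scale (edgeR adjusted p = 0.00123), so the combination lay below the small rise under romidepsin and the small fall under afatinib added together. The interaction of CIITA was 0.14 ± 0.08 SE (edgeR adjusted p = 0.163), and DESeq2 called it with 0.18 (adjusted p = 0.0449).

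**Figure D3:**
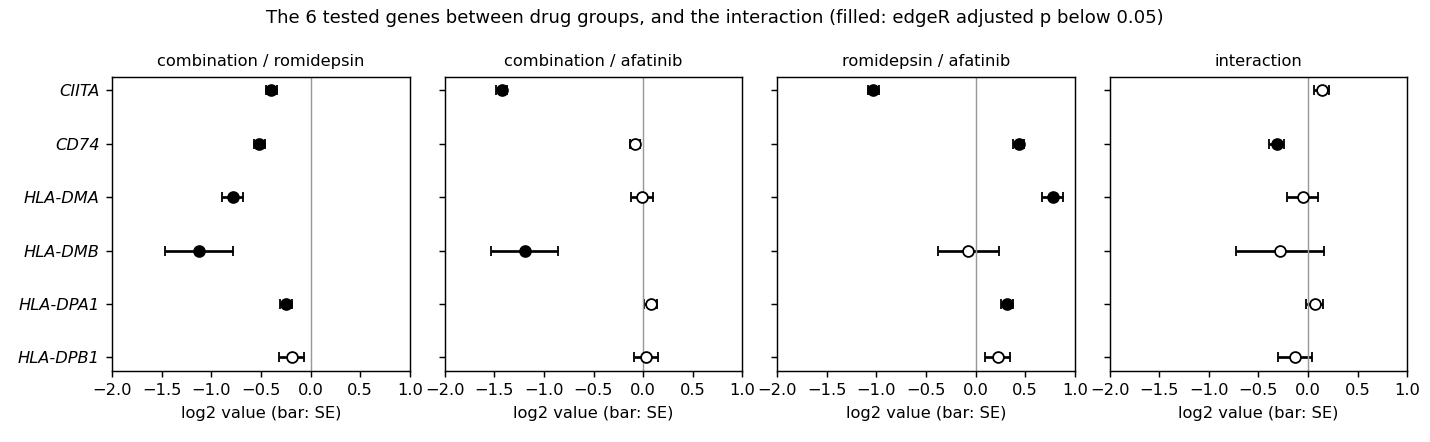
Log2 values (x axes) of the 6 tested genes (y axis) for the combination over romidepsin, the combination over afatinib, romidepsin over afatinib, and the interaction; bars are SEs and filled points were called by edgeR. HLA-DMA, CD74 and HLA-DPA1 lie left of 0 against romidepsin and near 0 against afatinib, and CIITA lies left of 0 in all 3 contrasts between drug groups.

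Few of the other class II genes of the table had enough counts to be tested. Of 10 such names, 2 were tested, and HLA-DRB5, HLA-DRB6 and HLA-DPB2 were among those listed at 0. HLA-DOA, the alpha chain of the inhibitor of HLA-DM, averaged 38.8 CPM in the combination, 35.3 CPM in romidepsin, 64.0 CPM in afatinib and 55.2 CPM in DMSO. It fell by 0.51 on the log2 scale in the combination (edgeR adjusted p = 2.04e-06) and by 0.64 in romidepsin (edgeR adjusted p = 4.11e-08). It rose by 0.22 in afatinib (edgeR adjusted p = 0.0374), a call that ended with DESeq2 (adjusted p = 0.0823) and without afatinib replicate 1, 2 or 3 or DMSO replicate 1 or 3 (edgeR adjusted p = 0.0543 to 0.153). The beta chain HLA-DOB had 0.99 CPM in the combination against 1.77 CPM in DMSO and was not called.

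Among the 7 factors that sit on the X and Y boxes, romidepsin and the combination lowered several, and RFX5 moved most. In the combination 4 of 7 fell and none rose, in romidepsin 5 fell and 1 rose, and in afatinib 2 fell and 1 rose. These are 57.1%, 85.7% and 42.9% of the 7 called in either direction, against 74.3%, 62.6% and 45.4% of all tested genes, and their median log2 fold changes were -0.30, -0.36 and 0.02. RFX5, the DNA-binding subunit of the RFX complex, had 179, 177 and 173 CPM in the combination, 265, 266 and 263 CPM in romidepsin, 637, 674 and 640.0 CPM in afatinib, and 712, 718 and 718 CPM in DMSO. The 4 groups did not overlap and stood in the same order as for CIITA. RFX5 fell by 2.02 on the log2 scale in the combination (edgeR adjusted p = 1.16e-34), by 1.44 in romidepsin (edgeR adjusted p = 1.37e-28) and by 0.14 in afatinib (edgeR adjusted p = 0.0199). The small fall in afatinib was -0.10 and not called without the KRT5 libraries (edgeR adjusted p = 0.433), and with library sizes in place of TMM factors it was -0.04 (edgeR adjusted p = 0.559). It was not called either without afatinib replicate 1 (edgeR adjusted p = 0.182), afatinib replicate 3 (edgeR adjusted p = 0.142) or DMSO replicate 1 (edgeR adjusted p = 0.0940).

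NFYC, a subunit of NF-Y, had 11.99, 11.7 and 9.63 CPM in the combination, 12.1, 12.4 and 10.1 CPM in romidepsin, 25.4, 24.0 and 24.7 CPM in afatinib, and 24.5, 23.4 and 25.2 CPM in DMSO. Its libraries formed a low pair and a high pair of groups, split by romidepsin. NFYC fell by 1.14 in the combination (edgeR adjusted p = 5.74e-12) and by 1.09 in romidepsin (edgeR adjusted p = 5.71e-11), and had 0.02 in afatinib (not called). NFYA, another subunit of NF-Y, averaged 57.0 CPM in the combination, 66.0 CPM in romidepsin, 42.0 CPM in afatinib and 52.5 CPM in DMSO. It fell by 0.32 in afatinib (edgeR adjusted p = 0.00100). NFYB, also of NF-Y, fell by 0.36 in romidepsin (edgeR adjusted p = 0.0151). That call was lost without romidepsin replicate 1 or 3 (edgeR adjusted p = 0.0875 and 0.103). RFXAP, another subunit of the RFX complex, fell by 0.35 in the combination (edgeR adjusted p = 0.00129) and by 0.60 in romidepsin (edgeR adjusted p = 1.16e-06), and rose by 0.60 in afatinib (edgeR adjusted p = 5.91e-07). RFXANK, the third subunit, was called in none of the 3 comparisons, with log2 fold changes of 0.22, 0.16 and 0.10 in the combination, romidepsin and afatinib.

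Interferon gamma is the classic inducer of CIITA, through its receptor, the kinases JAK1 and JAK2, and IRF1. Of the 8 tested genes of the route reported here, 5 rose and none fell in the combination, 5 rose and none fell in romidepsin, and 3 rose and 2 fell in afatinib. The called share was 62.5% in each comparison, in romidepsin close to the 62.6% of all tested genes, in the combination below their 74.3% and in afatinib above their 45.4%. The median log2 fold change of the 8 genes was 0.76 in the combination, 0.90 in romidepsin and 0.12 in afatinib. IRF1, a transcription factor that interferon gamma induces, had 115, 112 and 124 CPM in the combination, 145, 156 and 159 CPM in romidepsin, 60.7, 52.6 and 61.5 CPM in afatinib, and 80.5, 71.7 and 73.8 CPM in DMSO. The groups did not overlap, with romidepsin highest and afatinib lowest. IRF1 rose by 0.64 on the log2 scale in the combination (edgeR adjusted p = 1.54e-11) and by 1.02 in romidepsin (edgeR adjusted p = 3.68e-18), and it fell by 0.37 in afatinib (edgeR adjusted p = 3.59e-05).

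IFNGR1, the ligand-binding chain of the receptor, rose by 1.47 in the combination and by 1.65 in romidepsin (edgeR adjusted p = 2.84e-13 and 1.38e-14). JAK1 rose by 0.88 in the combination (edgeR adjusted p = 2.04e-16). Its means were 116 CPM in the combination, 109 CPM in romidepsin, 73.1 CPM in afatinib and 62.8 CPM in DMSO. JAK2 rose by 1.15, 1.12 and 0.43 in the combination, romidepsin and afatinib, and its afatinib call was lost without the KRT5 libraries (edgeR adjusted p = 0.255), without afatinib replicate 1 (edgeR adjusted p = 0.173) and without DMSO replicate 1 (edgeR adjusted p = 0.190). SOCS1, the feedback inhibitor of this signalling, rose in all 3, by 0.93, 1.01 and 0.50. USF1, a factor that binds an interferon-responsive promoter of CIITA, fell by 0.70 in afatinib (edgeR adjusted p = 8.33e-07). IFNG itself had 2 counts over the 12 libraries.

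**Figure D4:**
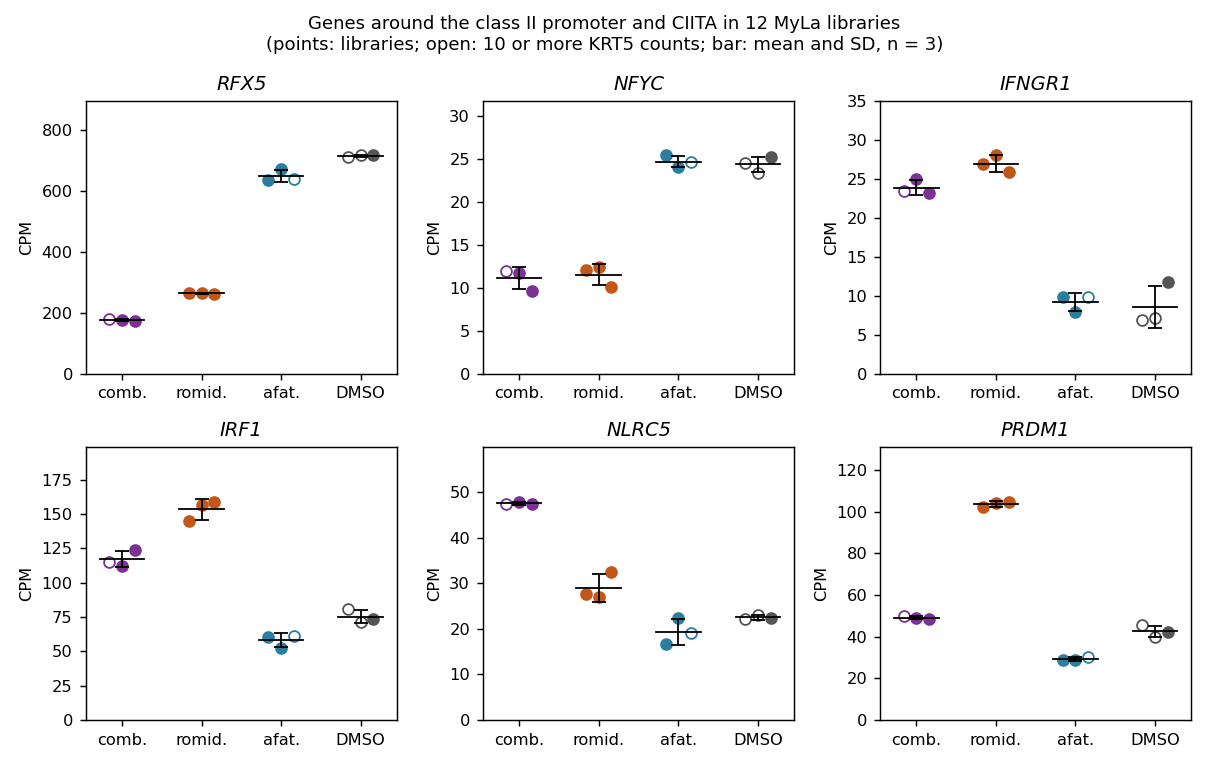
CPM of 6 genes around CIITA and the class II promoter (y axes, from 0) in the combination, romidepsin, afatinib and DMSO (x axis); points are libraries, open where a library holds 10 or more KRT5 counts, and bars are the mean and SD of 3 libraries. RFX5 and NFYC are low where romidepsin was given, with RFX5 means of 177, 265, 650.2 and 716 CPM, whereas IFNGR1, IRF1 and PRDM1 have their highest means under romidepsin alone and NLRC5 under the combination.

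Repressors and coactivators of CIITA moved in both directions. Of 12 tested genes, 5 rose and 7 fell in the combination, 5 rose and 4 fell in romidepsin, and 2 rose and 7 fell in afatinib. The shares called were 100%, 75% and 75% in the combination, romidepsin and afatinib, against 74.3%, 62.6% and 45.4% of all tested genes, with median log2 fold changes of -0.33, 0.04 and -0.27. PRDM1, whose product BLIMP-1 represses CIITA in plasma cells, had 50.1, 48.8 and 48.6 CPM in the combination, 102, 104 and 105 CPM in romidepsin, 28.6, 28.9 and 30.4 CPM in afatinib, and 45.4, 40.0 and 42.1 CPM in DMSO. Romidepsin libraries were the highest and afatinib libraries the lowest, and the combination lay slightly above DMSO. PRDM1 rose by 0.21 on the log2 scale in the combination (edgeR adjusted p = 0.0135) and by 1.29 in romidepsin (edgeR adjusted p = 1.13e-20), and fell by 0.54 in afatinib (edgeR adjusted p = 3.07e-07). CREBBP, an acetyltransferase that CIITA recruits, fell by 0.32 in the combination and by 0.68 in romidepsin, and rose by 0.42 in afatinib. CARM1, an arginine methyltransferase and coactivator, fell by 1.10 in the combination and by 0.63 in romidepsin. EZH2, a histone methyltransferase of gene silencing, rose by 0.75 in the combination (edgeR adjusted p = 7.07e-12) and was not called in either single drug.

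Of the 7 tested genes for antigen processing, 2 rose in the combination, 1 in romidepsin and 3 in afatinib, and none fell. Of the 7, 28.6%, 14.3% and 42.9% were thus called, against 74.3%, 62.6% and 45.4% of all tested genes, and the median log2 fold changes were 0.01, 0.08 and 0.05. LGMN, a protease that makes early cuts in antigens and the invariant chain, had 30.0, 23.5 and 25.1 CPM in the combination, 21.6, 16.7 and 19.7 CPM in romidepsin, 2.12, 1.70 and 3.77 CPM in afatinib, and 2.33, 3.63 and 1.66 CPM in DMSO. Libraries with romidepsin, alone or combined, all lay above those without it. LGMN rose by 3.38 in the combination (edgeR adjusted p = 1.23e-20) and by 2.95 in romidepsin (edgeR adjusted p = 1.29e-17). CTSD, the protease cathepsin D, rose by 0.56 in the combination and by 1.07 in afatinib, and SPPL2A, which cleaves the last membrane stub of CD74, rose by 0.62 in afatinib. CTSS, the main invariant chain protease of many antigen-presenting cells, averaged 2.97 CPM in the combination, 5.01 CPM in romidepsin, 3.93 CPM in afatinib and 3.96 CPM in DMSO and was not called.

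Genes of surface turnover and partners of CD74 gave 3 that rose and 2 that fell of 5 tested in the combination, 2 and 2 in romidepsin, and 2 and 0 in afatinib. Called shares of 100%, 80% and 40% stood against 74.3%, 62.6% and 45.4% of all tested genes, and the medians on the log2 scale were 0.91, 0.31 and 0.35. MARCH1, a ubiquitin ligase that removes class II from the surface, fell by 1.48 in the combination and by 1.27 in romidepsin, with means of 6.35 CPM in the combination, 7.30 CPM in romidepsin, 14.7 CPM in afatinib and 17.6 CPM in DMSO. MARCH8, of the same list, went the other way and rose by 0.91 in the combination (edgeR adjusted p = 8.32e-06). Its means were 10.6 CPM in the combination, 7.05 CPM in romidepsin, 5.60 CPM in afatinib and 5.66 CPM in DMSO. CD44, which signals together with CD74 at the surface, averaged 1985 CPM in the combination, 1405 CPM in romidepsin, 734 CPM in afatinib and 577 CPM in DMSO, and rose by 1.78, 1.28 and 0.35. CXCR4, another partner of CD74, fell by 0.58 in the combination and by 0.36 in romidepsin and rose by 0.41 in afatinib. LAG3, an inhibitory receptor for class II on T cells, had 7.93, 8.71 and 8.79 CPM in the combination, 4.38, 3.09 and 5.47 CPM in romidepsin, 0.55, 1.23 and 1.04 CPM in afatinib, and 0.75, 0.40 and 0.79 CPM in DMSO. It rose by 3.66 in the combination (edgeR adjusted p = 1.44e-15) and by 2.71 in romidepsin (edgeR adjusted p = 4.61e-10).

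The class I pathway shares the X and Y boxes of its promoters with class II and has its own transactivator, NLRC5. Of its 17 tested genes, 4 rose and 10 fell in the combination, 3 rose and 8 fell in romidepsin, and none rose and 10 fell in afatinib. The called genes were 82.4%, 64.7% and 58.8% of the list, against 74.3%, 62.6% and 45.4% of all tested genes, with median log2 fold changes of -0.48, -0.25 and -0.22. NLRC5 averaged 47.6 CPM in the combination, 29.0 CPM in romidepsin, 19.4 CPM in afatinib and 22.5 CPM in DMSO, so the transactivators of both classes stood in opposite directions in the combination. NLRC5 rose by 1.08 in the combination (edgeR adjusted p = 5.54e-14) and by 0.37 in romidepsin (edgeR adjusted p = 0.00155). PSMB8, a subunit of the immunoproteasome, fell by 2.55, 1.16 and 0.83 in the combination, romidepsin and afatinib. TAPBP, which holds class I molecules at the peptide transporter, fell by 1.84 and 1.12 in the combination and romidepsin. B2M, the light chain of class I, rose by 0.24 and 0.51 in these groups and fell by 0.18 in afatinib.

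Marker lists of other cells were set beside these levels. The summed CPM of 13 T cell markers was 81.0 to 82.2 in the combination, 128 to 139 in romidepsin, 259 to 278 in afatinib and 358 to 399 in DMSO. The summed CPM of 7 B cell markers was 26.8 to 33.7 in the combination, 30.1 to 37.7 in romidepsin, 47.1 to 53.5 in afatinib and 56.0 to 61.1 in DMSO, where MS4A1 was listed at 0. For 10 markers of monocytes and dendritic cells the sums were 25.2 to 28.9 in the combination, 39.0 to 51.2 in romidepsin, 72.6 to 77.1 in afatinib and 25.9 to 34.3 in DMSO, and LYZ had 4 counts in all. Only 3 of these 10 were tested, and the sums are mostly ITGAX and CSF1R. ITGAX averaged 11.3 CPM in romidepsin, 68.8 CPM in afatinib and 21.5 CPM in DMSO. CSF1R averaged 32.6 CPM in romidepsin, 5.42 CPM in afatinib and 6.97 CPM in DMSO. The summed CPM of 12 keratinocyte markers was 219 to 231 in the combination, 259 to 262 in romidepsin, 317 to 346 in afatinib and 311 to 358 in DMSO. SFN, KRT10, TP63 and PERP had the highest means of these over the 12 libraries (115, 59.2, 57.4 and 54.1 CPM), and KRT5 had 2.37 CPM. The summed CPM of 6 fibroblast markers was 14.7 to 17.3 in the combination, 26.1 to 32.5 in romidepsin, 98.1 to 103 in afatinib and 173 to 199 in DMSO. This sum is mostly COL1A1 and COL3A1, with means of 119 and 63.1 CPM in DMSO. DCN and LUM were listed at 0, and PDGFRB averaged 1.22 CPM in afatinib and 0.174 CPM in DMSO. The summed CPM of 12 T cell activation markers was 1793 to 1819 in the combination, 2550.1 to 2747 in romidepsin, 3047 to 3112 in afatinib and 3733 to 3882 in DMSO. IL2RA, TNFRSF4 and TFRC had the highest means of these over the 12 libraries (682, 898 and 485 CPM). In the combination against DMSO, 4 of 11 tested activation markers were called higher and 7 lower. Of all tested genes, 37.2% were called higher there and 37.1% lower. TNFRSF9 rose by 2.93 and CD69 by 2.53 on the log2 scale, and CD40LG fell by 2.94. The T cell, fibroblast and activation sums stood in the same order of groups as CIITA, without overlap. The part of these genes in the changes of CIITA and the class II genes was not tested. In bulk libraries, fewer cells with a transcript and less of it per cell cannot be told apart.

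The members did not follow CIITA evenly across libraries. Over the 12 libraries, which are 4 groups of 3, the Pearson correlation of log2 CPM with CIITA was 0.84 for HLA-DMB, 0.28 for HLA-DMA, 0.13 for HLA-DPA1, 0.06 for CD74 and -0.23 for HLA-DPB1, given as a description. Among 10186 other tested genes with a mean of at least 5 CPM, those most like CIITA by this measure were IGSF3 (0.998), COL1A1, TNFRSF25, HDGF and HAUS5 (each 0.996). Those most like CD74 were SEC23IP (0.976), CSTF2T (0.972), NF2 (0.971), EID1 (0.968) and CLNS1A (0.967). With 4 groups and 12 libraries, many genes that order the groups alike reach such values.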

How the data were processed

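RNA of MyLa cells was sequenced in 12 libraries. The authors deposited raw counts, as whole numbers of read pairs for each gene name, made with featureCounts 2.0.0 on GENCODE 31 from paired reads with both ends mapped, a check of fragment length, no chimeric pairs, no strand option and no multi-mapping reads, per the file headers. STAR 2.7.9a, GRCh38.p12 and DESeq2 1.38.1 are named, per the submitters' processing notes. The library kit is not given in the sources used here. A second deposited table was not used, because its values did not follow the counts (Spearman 0.0217 to 0.0492 over 13302 names). No libraries of a group agreed within sampling noise (chi-square per degree of freedom 2.01 to 7.82).

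Libraries were grouped by their treatment label, 3 per group. Genes were filtered with filterByExpr, which left 16208, and tested with edgeR 4.0.16 in R 4.3.3 (TMM, robust quasi-likelihood fit of 4 group means over all 12 libraries, two-sided, Benjamini-Hochberg over all tested genes, threshold 0.05). The coefficient of variation between libraries was 6.13%. The test was checked on simulated data. CPM per kilobase divides by the merged exon length in the table. Coordinates come from the count table.

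The members, lists, tests and alternatives were chosen with earlier results of these data known. Named besides the members were, per list and per comparison with DMSO or interaction, up to 4 called genes with the largest change and a mean of at least 5 CPM; RFXANK, IFNG, HLA-DOB, CTSS, LAG3 and B2M were added from the same lists after their values were seen. Some genes of the lists are not reported here. Alternatives were RLE factors, library sizes, DESeq2 1.42.0, 2 other filters, fits of only the groups compared, a replicate block, leaving out each library, and leaving out the 4 libraries with at least 10 KRT5 counts.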

Additional observations from a re-analysis of the deposited data

Results flagged for a closer look

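The effect of one drug differed with the presence of the other drug, by the edgeR test of the interaction itself, for CD74 and for 15 further genes, which are the up to 4 called genes with the largest value and a mean of at least 5 CPM in each gene list. More genes of the lists were called, 8 of 12 repressors and coactivators of CIITA and 9 of 17 class I genes in all. Of all tested genes, 30.2% were called in the interaction. The other lists had 2 of 7 factors of the X and Y boxes and 2 of 8 genes of the interferon gamma route. They also had 2 of 7 genes for antigen processing, 1 of 5 for surface turnover and CD74 partners, and 0 of 2 other class II genes. Values are interaction log2 values. Among the 6 tested members, only CD74 met this, with -0.31.

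The combination lay below the sum of the single-drug changes for ERAP1 (-0.91), TAPBP (-0.75), CXCR4 (-0.63), NCOA1 (-0.62), SPPL2A (-0.60), SOCS1 (-0.58), PRDM1 (-0.54), CTSD (-0.50) and RFX5 (-0.44). It lay above that sum for CALR (0.93), NLRC5 (0.93), EZH2 (0.60), USF1 (0.53), HDAC3 (0.52) and NFYB (0.48). Without the libraries with KRT5 counts the calls of NFYB (edgeR adjusted p = 0.0684), USF1 (0.352), NCOA1 (0.0503) and SPPL2A (0.0644) were lost. NFYB lost its call also in 8 of the 12 fits that left out 1 library (edgeR adjusted p = 0.0581 to 0.194).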

How the results depend on the processing

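Of 330 values of the 6 tested genes under alternatives other than leaving out 1 library, 303 kept their direction and their side of the threshold, and none of the 15 that changed sign was a called value. The members called against DMSO moved to 2 in afatinib and 3 in the combination without the 4 libraries with KRT5 counts, and all genes called in afatinib to 4162 from 7351. DESeq2 called 2 members in the interaction. With library sizes alone, CD74 in afatinib had -0.10 (edgeR adjusted p = 0.134).

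Uncalled values that changed sign were as follows, on the log2 scale. HLA-DPA1 had -0.021 in romidepsin without a filter and -0.17 in the interaction without the KRT5 libraries. HLA-DPB1 in afatinib had 0.039 with library sizes and 0.33 without the KRT5 libraries. HLA-DPB1 in the combination had 0.0029 with RLE factors, 0.073 with library sizes, 0.013 with only the groups compared, 0.31 without the KRT5 libraries and 0.0030 with DESeq2. HLA-DPB1 had -0.015 in the combination against afatinib without the KRT5 libraries. HLA-DMA in the combination against afatinib had 0.028 with RLE factors and with DESeq2, 0.00036 without a filter, 0.025 with only the groups compared and 0.10 without the KRT5 libraries. The causes were not tested.

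Leaving out 1 library gave 4 to 5 called members in afatinib and the main number in every other comparison. Uncalled values spanned 0: HLA-DPA1 -0.065 to 0.070, HLA-DMA -0.075 to 0.15 in romidepsin; HLA-DPB1 -0.18 to 0.083 in afatinib, -0.16 to 0.15 in the combination and -0.014 to 0.12 in the combination against afatinib, where HLA-DMA had -0.12 to 0.062; HLA-DMB -0.22 to 0.071 in romidepsin against afatinib. In the interaction, HLA-DPA1 had -0.0052 to 0.13, HLA-DMA -0.17 to 0.056, HLA-DOA -0.17 to 0.037 and CD37 -0.046 to 0.17.

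Same-numbered libraries did not deviate together (correlations -0.0899 to 0.0894), so no shared deviation by number was seen. Whether same-numbered libraries were set up together is not stated in the labels, and these correlations cannot show it. A replicate block kept the number of members called in all 7 comparisons, 5 in the combination and in afatinib against DMSO and 3 in romidepsin, and lost the NFYB interaction (0.47, edgeR adjusted p = 0.0521).

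Low counts limit HLA-DMB, at 7 to 50 counts a library, and the genes listed at 0, and their cause was not tested. One cell line, 1 time and 1 dose of each drug were measured, and no protein.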
